A study of Mus musculus with 6 samples.

Results

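The immediate early genes of the FOS, JUN and EGR families were examined in the RNA of primary mouse embryonic fibroblasts (MEFs). The members were the 10 genes Fos, Fosb, Fosl1, Fosl2, Jun, Junb, Egr1, Egr2, Egr3 and Ier2, taken by name from the 18872 genes in the table, at a time when earlier results of these data were known. All 10 were found in it and all 10 reached the minimum level for testing. RNA was sequenced in 6 libraries of the B6 strain background, of which 3 carry the label SARAF-KO and 3 the label wild type, called KO-labelled and WT-labelled (SARAF-WT) from here on. The cultures were grown from the trunks of embryos at day 14.5 in 10% fetal calf serum, and RNA was taken at 75% confluence. In the study, SARAF-KO animals carried floxed Saraf alleles and a Cre driven by the ubiquitous PGK promoter, and the SARAF-WT littermates carried the same floxed alleles without Cre. The labels do not say which embryo gave each library, so the replicates may be technical, in which case the p-values speak only of how these libraries spread.

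FOS and JUN proteins pair through leucine zippers to form the transcription factor AP-1, which binds the TPA response element, and EGR proteins are zinc finger factors that bind GC-rich sites. Most of these genes are transcribed within minutes of a stimulus such as serum, growth factors or a rise of intracellular Ca2+, without new protein synthesis, and their RNAs decay quickly. The signal reaches them through MAP kinases, the serum response factor SRF with its ternary complex partners, and CREB. Fosl1 and Fosl2, which encode FRA-1 and FRA-2, are induced later and last longer, and AP-1 itself helps to induce them. When the Ca2+ store of the endoplasmic reticulum empties, channels in the plasma membrane open, and SARAF acts as a brake on this inflow. The comparison sets the levels of these genes side by side between the labels.

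Saraf, the targeted gene, had 4631, 4476 and 4384 normalized counts in the KO-labelled libraries and 3268, 3409 and 3306 in the WT-labelled ones. It was therefore higher in the KO-labelled libraries (log2 change 0.43 with a standard error, SE, of 0.03, limma adjusted p = 4.2e-12; two-sided exact permutation p = 0.1, the smallest that 3 against 3 libraries allow). Because the gene count covers mostly exons outside the floxed one, it need not fall when that exon is lost, but it runs against the label. Each direction below is therefore given by label and not by a known genotype. A normalized count is a gene's read number over the size factor that scales its library. The KO-labelled libraries held 32799080 to 37979662 reads and the WT-labelled ones 24595137 to 32228588, so depth also moved with the label. All differences below are log2 changes of the normalized count plus 1, KO-labelled libraries minus WT-labelled libraries, and a gene that rose or fell by a number did so on this log2 scale.

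Of the 10 members, 7 were lower and 2 higher in the KO-labelled libraries at an adjusted p under 0.05 from limma, and Fosl2 was not called. Among all 13986 genes tested, 56.2% were called, 28.2% higher and 28% lower. The median log2 change of the members was -0.31, against -0.0014 over all genes tested. Fos, Fosb, Egr1, Egr2 and Egr3 were 1.38-fold to 1.71-fold higher in the WT-labelled libraries, whereas Jun and Ier2 were 1.11-fold and 1.07-fold higher there. Fosl1 went the other way, 1.61-fold higher in the KO-labelled libraries, and Junb was 1.09-fold higher in them. In 6 members every KO-labelled library was below every WT-labelled library, a pattern found in 30.5% of all genes tested, and in 1 member, Fosl1, every one was above, as in 30.9% of all genes tested, so that 61.4% of all genes tested had no overlap in either direction. A called log2 change of -0.4 or less was found in 5 members and in 10.1% of all genes tested. This cut was not set in advance. It lies in the gap between Fosb, at -0.46, and Jun, at -0.15, so the contrast is a description only.

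**Figure D1:**
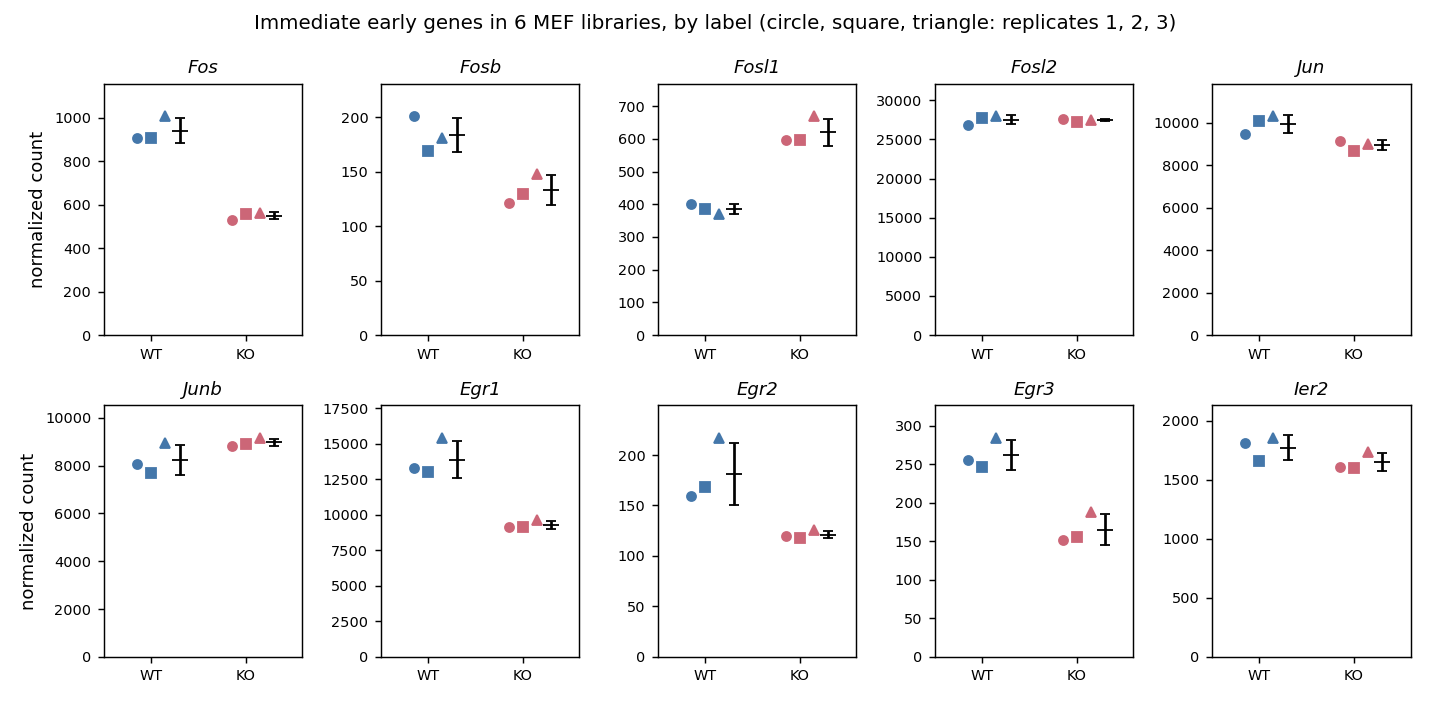
Normalized counts (vertical axes, each starting at 0) of the 10 genes in the 3 libraries of each label, where circles, squares and triangles are replicates 1, 2 and 3 and the bar beside them is the mean with the SD. Fos, Egr1, Egr2, Egr3 and Fosb lie lower and Fosl1 higher in the KO-labelled libraries without overlap, while the Fosl2 points of both labels lie between 26881 and 27939.

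Fos, the founding member of its family, lies on the plus strand of chromosome 12 of GRCm38 from 85473890 to 85477273. It had 531, 558 and 563 normalized counts in the KO-labelled libraries and 908, 910 and 1007 in the WT-labelled ones. The labels did not overlap, and the means of 551 ± 17.2 and 942 ± 56.8 (SD, n = 3) differed 1.71-fold. The log2 change of -0.77 (SE 0.05, limma adjusted p = 4.3e-12) was the lowest of the 10 members, and 4.29% of all genes tested had as low a change or lower. Fosb, which encodes a protein closely related to FOS, on chromosome 7 from 19302696 to 19310051, had 122, 129 and 148 normalized counts against 201, 169 and 181. Its log2 change was -0.46 (SE 0.10, limma adjusted p = 0.00054), on 138 to 198 reads per library.

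Fosl1 was the only member of the FOS family that was higher in the KO-labelled libraries. FRA-1, its product, lacks the transactivation domain of FOS and is best known from migrating and transformed cells. The gene lies on chromosome 19 from 5447547 to 5455946 and had 597, 596 and 668 normalized counts against 401, 385 and 372, again without overlap. The log2 change was 0.68 (SE 0.06, limma adjusted p = 9.0e-10), and the labels differed 1.61-fold. In the annotation 1163 exon bases of Fosl1 overlap Ccdc85b, a gene on the other strand, and the library kit does not mark strand. Ccdc85b had 1023 ± 30.2 and 1044 ± 39.9 normalized counts (SD, n = 3) and a log2 change of -0.03 (limma adjusted p = 0.59).

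Fosl2, on chromosome 5 from 32135801 to 32157842, encodes FRA-2, which is known for roles in bone and connective tissue. It had 27549, 27276 and 27487 normalized counts against 26881, 27727 and 27939, so that the labels overlapped. The log2 change was -0.0039 (95% interval -0.05 to 0.04, limma adjusted p = 0.90). Within the FOS family, Fos and Fosb were thus lower and Fosl1 higher in the KO-labelled libraries, and for Fosl2 the interval held 0.

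Sequences upstream of the start sites are shown for Fos and Egr2, which were lower, and for Junb, which was higher with overlap between the labels. RefSeq windows on GRCm38.p6 were listed for 6 of the 10 members. The 250 bases before the start were searched on both strands for the CArG box, where SRF binds, for TGACG, the core of the cyclic AMP response element where CREB binds, for the full element TGACGTCA, which contains it, for the AP-1 site TGACTCA and for the EGR site GCGNGGGCG. Each run reads 5′ to 3′ on the strand of the gene and ends at the base before the start, and capitals mark the matches. The windows are chr12:85473640-85473889 on the plus strand for Fos, chr10:67537619-67537868 on the plus strand for Egr2, 1 of 5 starts listed for that gene, and chr8:84978749-84978998 on the minus strand for Junb.
Fos: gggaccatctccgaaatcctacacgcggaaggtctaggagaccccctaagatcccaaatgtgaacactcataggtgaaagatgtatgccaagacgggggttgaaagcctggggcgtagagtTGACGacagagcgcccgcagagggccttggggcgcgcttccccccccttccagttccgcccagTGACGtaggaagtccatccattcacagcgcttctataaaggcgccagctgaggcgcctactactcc
Egr2: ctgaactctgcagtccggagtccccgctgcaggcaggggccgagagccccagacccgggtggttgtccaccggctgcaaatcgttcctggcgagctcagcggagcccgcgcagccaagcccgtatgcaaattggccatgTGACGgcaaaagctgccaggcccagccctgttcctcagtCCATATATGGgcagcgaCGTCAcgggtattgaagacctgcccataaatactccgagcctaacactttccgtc
Junb: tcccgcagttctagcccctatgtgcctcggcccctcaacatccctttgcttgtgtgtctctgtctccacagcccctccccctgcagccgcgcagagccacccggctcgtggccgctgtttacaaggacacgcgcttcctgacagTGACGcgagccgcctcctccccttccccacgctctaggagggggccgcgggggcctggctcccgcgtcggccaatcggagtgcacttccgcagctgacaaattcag
The Fos window held TGACG at -129 and at -66 from the start, and the Junb window held it at -106. The Egr2 window held a CArG box from -72 to -63 between a TGACG at -111 and one on the other strand at -55. A CArG box was found in 1.47% of all 32851 windows of the same length and TGACG in 17.8%. The full element, found in 1.55% of all windows, and the AP-1 site, found in 4.46%, were in none of the members' windows, and the EGR site, found in 4.7%, was in those of Fosb and Fosl2, which overlap exons of these genes. The Fosb window also held TGACG, at -60. The Jun window held no match and is not shown, although Jun was lower too. The Egr2 window chr10:67535249-67535498 held none either. These are matches of letters only, and neither near matches nor sites farther from the start were searched. A window without a match therefore does not mean that the gene lacks the site.

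The 3 EGR genes were lower together. EGR1, a zinc finger factor induced by growth factors and wounding, is encoded on chromosome 18 from 34859823 to 34864984. Egr1 had 9123, 9159 and 9628 normalized counts in the KO-labelled libraries and 13292, 12979.8 and 15391 in the WT-labelled ones, with no overlap. The log2 change was -0.57 (SE 0.04, limma adjusted p = 9.1e-12), a 1.49-fold difference, and 6.94% of all genes tested had as low a change or lower. Egr2, known for its part in hindbrain patterning and myelination, lies on chromosome 10 from 67535475 to 67542188. It had 119.8, 118 and 125 normalized counts against 159, 168 and 217, and a log2 change of -0.56 (SE 0.11, limma adjusted p = 0.00014). Replicate 3 of the label SARAF-WT was the highest in both genes, and without it the log2 change of Egr2 was -0.43 and that of Egr1 -0.50, each still called.

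Egr3, known for roles in muscle spindles and lymphocytes, had 151, 156 and 188 normalized counts against 255, 246 and 284. The labels did not overlap, and the log2 change was -0.66 (SE 0.10, limma adjusted p = 2.0e-06). Egr3 lies on chromosome 14 from 70077203 to 70082614. Of 63 tested genes within 5 Mb of it 33 were lower and 10 higher, with a median log2 change of -0.23, and over the whole chromosome 287 of 455 tested genes were lower. More neighbours went with the member than against it around Fosb, with 28 of 75 lower and 12 higher, and around Fos, with 21 of 77 lower and 11 higher. The same held around Fosl1, with 79 of 194 higher and 31 lower, and around Junb, with 37 of 88 higher and 14 lower. Around Egr1 39 of 118 were lower and 31 higher. More went against the member around Egr2, with 20 of 33 higher and 2 lower, and around Ier2, with 40 of 91 higher and 13 lower. Around Jun, which was lower, 7 of 23 were higher and 5 lower. Over all genes tested 28.2% were higher and 28% lower. Junb and Ier2 lie close together on chromosome 8, so their windows hold largely the same genes. Whole chromosomes leaned as well. On chromosome 8 323 of 715 tested genes were higher and 104 lower, on chromosome 10 291 of 653 and 111. On chromosome 19 186 of 473 were higher and 78 lower, and on chromosome 7 193 of 1003 and 344. Chromosomes 12, 4 and 18 were more even, with 105 higher and 130 lower, 259 and 204, and 109 and 112. The part of the chromosome in these results was not tested.

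In the JUN family the differences were smaller and went in opposite directions. JUN, the main activating partner of FOS in AP-1, is encoded on chromosome 4 from 95049034 to 95052222. Jun had 9151, 8685 and 9020 normalized counts in the KO-labelled libraries and 9476, 10079.5 and 10297 in the WT-labelled ones. The labels did not overlap, and the log2 change was -0.15 (SE 0.03, limma adjusted p = 9.0e-05). The antisense gene Junos covers 232 exon bases of Jun and was not analysed here.

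Junb, whose product can oppose JUN, on chromosome 8 from 84974484 to 84978718, had 8833, 8914 and 9143 normalized counts against 8062, 7684 and 8925. The highest WT-labelled library lay above the lowest KO-labelled one, so the labels overlapped. The log2 change of 0.13 (SE 0.04, limma adjusted p = 0.0040) was not called with DESeq2 (adjusted p = 0.12), or in limma without SARAF-WT replicate 2, where it was 0.08 (adjusted p = 0.051). Junb shares 173 exon bases with Prdx2, on the other strand, which had a log2 change of 0.22 (limma adjusted p = 1.1e-07), and the part of shared reads was not tested. Ier2, which encodes a nuclear protein of the early response outside these families, on chromosome 8 from 84661331 to 84662852, had 1607, 1601 and 1736 normalized counts against 1808, 1655 and 1851. These overlapped too, and the log2 change of -0.10 (SE 0.04, limma adjusted p = 0.039) lost its call in 7 of 16 alternative analyses.

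**Figure D2:**
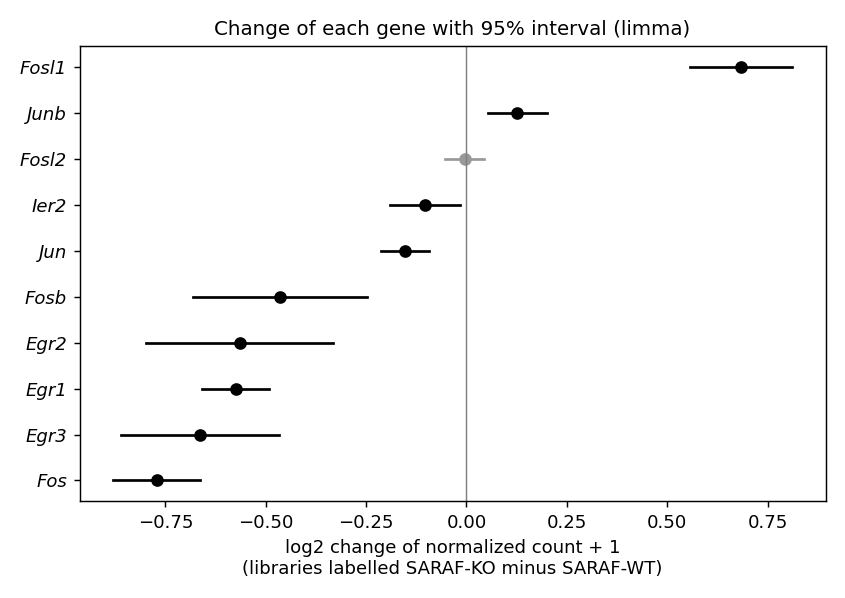
Log2 change of the normalized count plus 1 (horizontal axis, KO-labelled libraries minus the WT-labelled ones) with its 95% interval from limma for the 10 genes, ordered by size, with Fosl2, which was not called, in grey. Fos, Egr3, Egr1, Egr2 and Fosb lie between -0.77 and -0.46, Jun, Ier2, Fosl2 and Junb between -0.15 and 0.13, and Fosl1 at 0.68.

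To compare the genes with each other, normalized counts were divided by the exon length in kb. Junb, Jun, Fosl2 and Egr1 were the most abundant members, with means of 3896 ± 70.0, 2807 ± 75.4, 2834 ± 14.8 and 2075 ± 62.8 normalized counts per kb in the KO-labelled libraries and 3574 ± 276, 3120 ± 133, 2843 ± 57.8 and 3097 ± 292 in the WT-labelled ones (SD, n = 3). Ier2 followed at 1083 ± 50.1 and 1164 ± 67.7. Fos had 234 ± 7.31 and 400.3 ± 24.1, and Fosl1 305 ± 20.4 and 190 ± 7.28. The level of Fosl1 depends on the length used, because 1163 of its 2033 exon bases are shared with Ccdc85b and the counting of such reads is not stated. Over its 870 unshared bases, a length chosen after seeing the data, it came to 713 ± 47.6 and 443 ± 17.0, so its order relative to Fos in the WT-labelled libraries is not settled. Egr3, Egr2 and Fosb were the lowest, all between 19.5 and 64.4 in every library, and Egr2 and Egr3 did not differ beyond their spread in either label. In the KO-labelled libraries Jun and Fosl2 also overlapped in level, and in the WT-labelled ones Egr1 overlapped with both Jun and Junb.

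Fosl2 made up most of the FOS family RNA per length, between 81.8% and 84.1% in every library over full exon lengths. Fos made up 6.67% to 7.05% of the family in the KO-labelled libraries and 11.2% to 12.1% in the WT-labelled ones, whereas Fosl1 made up 8.68% to 9.58% and 5.18% to 5.82%. Per length, the ratio of Fosl1 to Fos was 1.30, 1.23 and 1.37 in the KO-labelled libraries and 0.51, 0.49 and 0.43 in the WT-labelled ones. Over unshared exon bases the same ratio was 3.04, 2.89 and 3.21 against 1.19, 1.14 and 0.997. The change of length multiplies the ratio of every library by the same factor, so the order of the labels could not change with it. The side of 1 on which the WT-labelled libraries fell depended on the length. Summed over Fos, Fosb, Fosl1 and Fosl2 the family had 3369 to 3431 normalized counts per kb against 3392 to 3526, so that its total overlapped between the labels. Over unshared bases Fosl1 made up 18.2% to 19.8% against 11.3% to 12.6%, and the totals of 3761 to 3871 and 3656 to 3771 overlapped too. Fosl2 then made up 73.4% to 75.3% against 76.0% to 77.0%, so the order of the labels in its share depended on the length. Fos made up 5.98% to 6.31% against 10.4% to 11.4%.

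Among Jun, Junb and Jund, which encodes the third JUN protein and is not an immediate early gene, Jun made up 23.8% to 25.1% in the KO-labelled libraries and 27.4% to 30.8% in the WT-labelled ones. Jund made up 40.9% to 42.3% and 36.3% to 40.3%, and the shares of Junb overlapped, at 33.6% to 34.5% and 32.3% to 34.7%. An antisense gene overlaps 877 exon bases of Jund, and reads of it cannot be told apart from those of Jund. Over unshared bases Jund made up 57.5% to 58.9% against 52.7% to 56.9%. Summed over Jun, Junb and Jund the family had 11424 to 11508.5 normalized counts per kb against 10258 to 11163, without overlap. Over unshared bases the sums were 17190 to 17343 against 14944 to 16227. The summed EGR signal was lower in the KO-labelled libraries, at 2104 to 2227 normalized counts per kb against 2999.9 to 3561, and Egr1 made up 96.4% to 96.7% of it in every library.

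**Figure D3:**
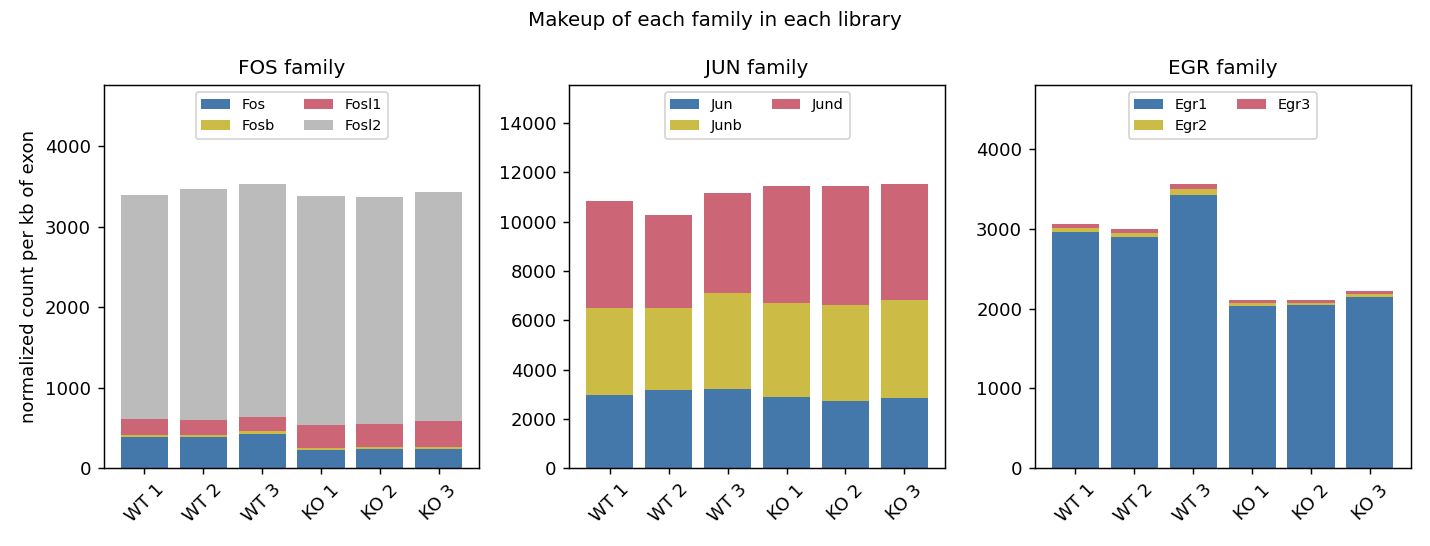
Normalized counts per kb of exon (vertical axes, starting at 0) in each library (WT and KO stand for the labels SARAF-WT and SARAF-KO, with replicate number), stacked by gene for the FOS, JUN and EGR families. The FOS total stays between 3369 and 3526 while Fos takes a smaller and Fosl1 a larger part in the KO-labelled libraries, and the EGR total, nearly all Egr1, is lower in them.

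Replicate 3 was the highest library of its label in 8 of 10 members among the KO-labelled ones, the exceptions being Jun and Fosl2, and in 8 of 10 among the WT-labelled ones, the exceptions being Fosb and Fosl1. Over all genes tested the same libraries were the highest in 34.7% and 30.6% of genes. Among 52 other immediate early genes they were the highest in 25 (48.1%) and 28 (53.8%). The largest deviation of a member above the mean of its label, on the log2 scale, was 0.27 for Egr2 in SARAF-WT replicate 3 and 0.20 for Egr3 in SARAF-KO replicate 3. In each label replicate 3 had the fewest reads, and with all libraries thinned to the smallest total all 10 members had the same call as before. The part of depth in the order of the replicates was not tested.

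**Figure D4:**
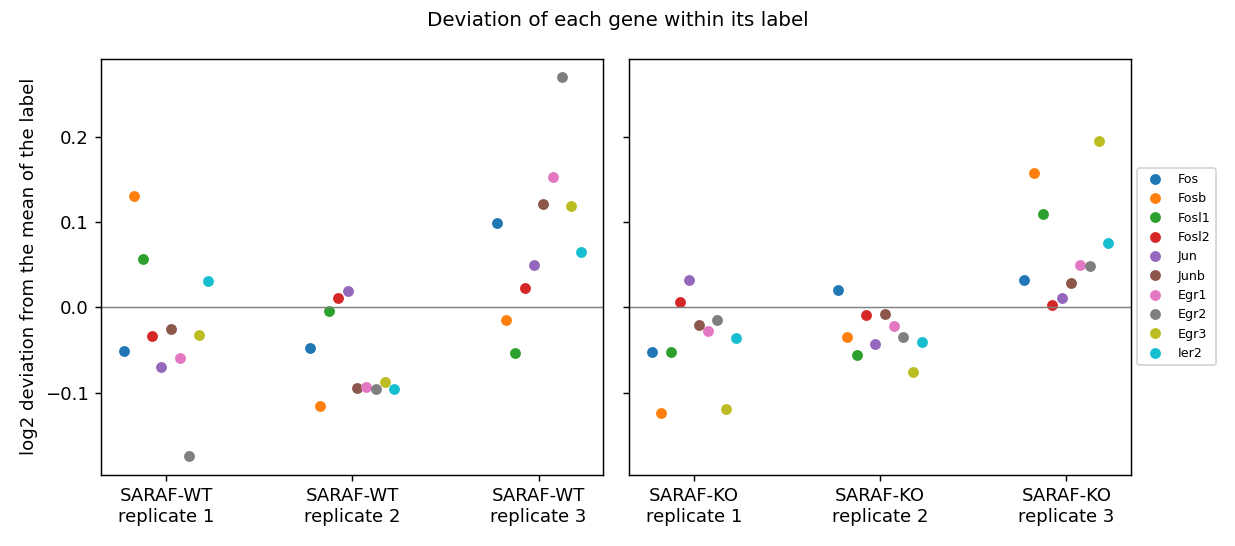
Deviation of each gene from the mean of its label (vertical axis, log2 of the normalized count plus 1) in each library (horizontal axis), with 1 colour per gene. Most points of replicate 3 lie above 0 in both labels, up to 0.27 for Egr2 in SARAF-WT and 0.20 for Egr3 in SARAF-KO, and most points of SARAF-WT replicate 2 lie below 0.

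The other genes of the response went both ways. Of 52 other immediate early genes tested, in 2 lists, 22 were higher and 17 lower in the KO-labelled libraries, and their median log2 change was 0.0052. Of the 18 transcription factors among them 7 were higher and 7 lower, so that 77.8% were called, against 56.2% of all genes tested. Klf2 and Klf4, Krüppel-like zinc finger genes, had log2 changes of 0.52 and 0.33 (limma adjusted p = 2.3e-09 and 2.7e-08). Myc, the growth-promoting bHLH factor gene, had 3572, 3622 and 3738 normalized counts against 2644, 2585 and 2778.5 (log2 change 0.45, limma adjusted p = 1.0e-11). Srf itself, the factor that acts at CArG boxes, had 2158, 2220.5 and 2285 against 2781.5, 2586 and 2805 (log2 change -0.29, limma adjusted p = 1.0e-07). Nr4a1, an orphan receptor gene with a rapid response to Ca2+ and named here after its values were seen, fell by 0.31, while its relatives Nr4a2 rose by 0.35 and Nr4a3 was not called, with a log2 change of -0.21 (limma adjusted p = 0.066).

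Of the 34 effectors and feedback genes 15 were higher and 10 lower, with a median log2 change of 0.0073. The share called was 73.5%, against 56.2% of all genes tested. Spry2 and Dusp6, which both restrain receptor tyrosine kinase and ERK signaling, changed in opposite directions. Spry2 had 2122, 1900.2 and 2001 normalized counts in the KO-labelled libraries and 4178, 4315 and 4486 in the WT-labelled ones (log2 change -1.11, limma adjusted p = 2.3e-18). Dusp6, an ERK phosphatase gene, had 1852, 1822 and 1933 against 1003, 927 and 974 (log2 change 0.95, limma adjusted p = 4.3e-16). Plk2, a kinase gene of the early response, rose by 0.56, and F3, tissue factor, fell by 0.57. Chosen after their values were seen, Zfp36, whose product degrades AU-rich RNAs such as that of Fos, fell by 0.37, Cyr61, a matrix signaling gene, fell by 0.43, and Ier3 rose by 0.40.

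**Figure D5:**
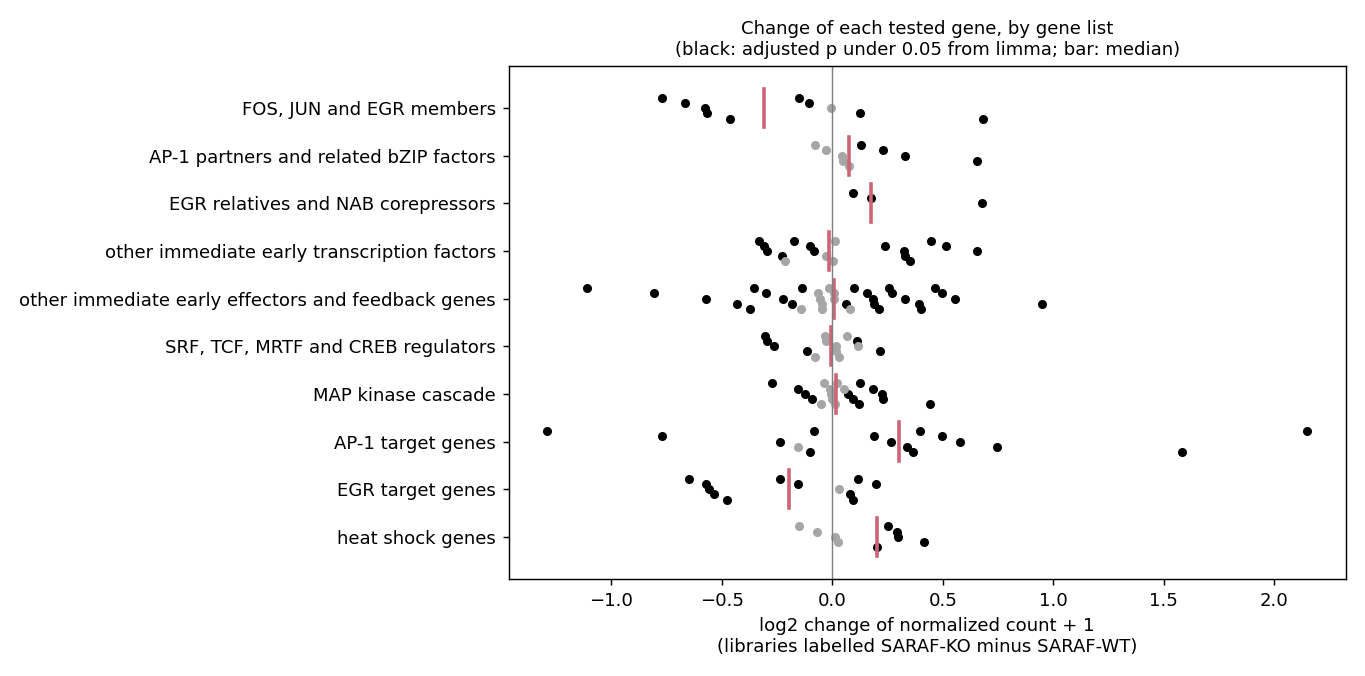
Log2 change of the normalized count plus 1 (horizontal axis, KO-labelled libraries minus the WT-labelled ones) of each tested gene in the 10 members and in 9 lists of related genes, with genes at an adjusted p under 0.05 from limma in black, the others in grey and the median of each list as a bar. The median of the members lies at -0.31, those of the other immediate early lists close to 0, and that of the AP-1 target genes at 0.30.

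Among the factors that can pair or compete with FOS and JUN, 44.4% of those tested were called, against 56.2% of all genes tested. Of these 9 factors 4 were higher and none was lower, with a median log2 change of 0.08. These 4 were Jund (0.23, limma adjusted p = 5.9e-06), Atf3, a stress-induced repressor gene (0.66, adjusted p = 6.5e-06), and the small MAF genes Maff and Mafk (0.33 and 0.13). Atf3 had 236, 199.5 and 225 normalized counts in the KO-labelled libraries and 122, 150.3 and 147 in the WT-labelled ones. It is itself induced early in many cells, and its labels did not overlap. Atf3 and Maff were also counted among the 18 transcription factors above. The corepressor genes Nab1 and Nab2, whose products bind EGR proteins, rose by 0.18 and 0.09, and Wt1, an EGR-related zinc finger gene, rose by 0.68. Egr4 was below the minimum level, with 1.71 to 3.40 against 4.15 to 9.19 normalized counts.

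Genes that act upstream of the members went both ways. Of 14 SRF, TCF, MRTF and CREB regulators 2 were higher and 4 lower, with a median log2 change of -0.0067. Srf, Mkl1, which encodes the actin-sensing SRF coactivator MRTF-A, and the acetyltransferase gene Crebbp had log2 changes of -0.29, -0.31 and -0.26, and Elk3, a ternary complex factor gene, rose by 0.22. Of 20 genes of the MAP kinase cascade 8 were higher and 4 lower, with a median of 0.02. In either direction 42.9% of the regulators and 60% of the cascade genes were called, against 56.2% of all genes tested. Hras and Nras, which encode small GTPases, rose by 0.22 and 0.19 and Map2k2, which encodes MEK2, by 0.23.

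Known targets of AP-1 and EGR went in both directions. Of 16 AP-1 target genes 10 were higher and 5 lower, with a median log2 change of 0.30. In either direction 93.8% of them were called, against 56.2% of all genes tested. Mmp13, a collagenase gene, had 1148, 1094 and 1218 normalized counts in the KO-labelled libraries and 338, 418 and 399 in the WT-labelled ones (log2 change 1.58, limma adjusted p = 1.9e-16). Mmp3, stromelysin, had 3693, 3544 and 3552 against 8125, 9304 and 9035 (log2 change -1.29, limma adjusted p = 7.4e-20). Ccnd1, cyclin D1, rose by 0.75 and Plau, urokinase, fell by 0.77. Of 12 EGR target genes 7 were lower and 4 higher, with a median of -0.20, and 91.7% were called in either direction. Icam1, an adhesion receptor gene, fell by 0.65, F3 by 0.57, Igf2 by 0.56 and Fn1, fibronectin, by 0.47. Without SARAF-KO replicate 2, 3 of the AP-1 target genes were lower in place of 5.

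Some marker lists of cell types differed between the labels as well, and others did not. The fibroblast markers were abundant, with a summed level of 338895 to 344869 normalized counts in the KO-labelled libraries and 410226 to 415134 in the WT-labelled ones, and 3 of 12 were higher and 8 lower. Of 8 smooth muscle and myofibroblast markers 6 were lower and none was higher, and their sum was 4839.7 to 5569.5 against 13967 to 17759.6. In either direction 91.7% of the fibroblast markers and 75% of the smooth muscle and myofibroblast markers were called, against 56.2% of all genes tested. Macrophage and immune markers summed to 1620.2 to 1684 against 1928 to 2064, and of the 4 tested Cd14 was lower (-0.46), Cd53 and Csf1r were higher (1.44 and 0.80) and Cd68 was not called, with a median log2 change of 0.36. Adgre1 and Tyrobp were not analysed here, Lyz2 and Aif1 were below the minimum level, and Ptprc, the pan-leukocyte gene, was at 0 in 5 of 6 libraries and under 1 normalized count in the other. Endothelial markers summed to 1256 to 1355 against 2087 to 2123, mostly from Kdr, which fell by 0.77, while Tek rose by 0.74 and Pecam1, Cdh5, Tie1 and Cldn5 were below the minimum level. Epithelial markers summed to at most 43.7 against at most 107.8. Neural and Schwann markers summed to 1313 to 1386 against 1132 to 1328, and skeletal myoblast markers to 0.86 to 5.10 against 0 to 4.05. The sums of both of these lists overlapped between the labels. Of 9 heat shock genes 5 were higher and none lower, with Hsph1, Hspd1, Hspa8 and Hsp90aa1 at log2 changes of 0.42, 0.30, 0.25 and 0.20. In either direction 55.6% of this list was called, near the 56.2% of all genes tested. Of the same list, and chosen after their values were seen, the inducible Hspa1a and Hspa1b had log2 changes of -0.15 and 0.03 (limma adjusted p = 0.11 and 0.74). The part of these lists in the changes of the members was not tested, and in bulk RNA fewer cells that express a gene cannot be told apart from less RNA per cell.

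The genes most like Fos, Egr1 and Jun in their profile over the 6 libraries were found among 12244 other genes by the root mean square difference of log2 values, each gene centred on its own mean. For Fos these were Agrn, which encodes agrin, Ripk3, a kinase gene of necroptosis, and Pik3cd, a phosphoinositide kinase gene, at differences of 0.0445 to 0.0451. For Egr1 they were Grin2d, a glutamate receptor subunit gene, 8430419L09Rik and H2-T22, at 0.042 to 0.057, and for Jun Slc37a3, Acaa1a and Zfp141, at 0.016 to 0.017.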

How the data were processed

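The 6 libraries of mouse embryonic fibroblast RNA were made with a kit that does not mark strand. Alignment by the authors was with TopHat 2.0.10 to GRCm38, and HTSeq with the annotation of Ensembl release 82 gave the reads per gene. The deposited signal is this read number divided by a DESeq2 size factor. The sources used here do not give the versions of HTSeq and DESeq2. The deposited p-values and the score columns of log2 fold changes, their errors and test statistics are the authors' own DESeq2 comparison and were not used. Whole reads were recovered from the steps of the values, and 100% of the values came out whole within 1e-06.

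Testing was limited to genes whose normalized counts averaged 10 or more, on log2 of the value plus a pseudocount of 1 with limma 3.58.1 (trend, R 4.3.3), and with Benjamini-Hochberg adjustment over all 13986 genes and a threshold of 0.05. Alternatives used edgeR 4.0.16 and DESeq2 1.42.0 on the recovered reads, other scalings, filters and pseudocounts, thinned reads, a replicate block and each library left out. Exon lengths and overlaps came from GENCODE on GRCm38 and upstream windows from RefSeq. The members and the gene lists were chosen with earlier results of these data known. In each pathway list, and among the heat shock genes, those named by rule were up to 4 with the smallest adjusted p, except for a gene that is not reported here. Markers of cell types are named as defining markers, and other genes are said to be chosen after their values were seen.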

Additional observations from a re-analysis of the deposited data

How the results depend on the processing

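Fos, Fosb, Fosl1, Jun, Egr1, Egr2 and Egr3 kept their direction and their call in all 16 alternatives, and Fosl2 was called in 0. Junb lost its call in 2 and Ier2 in 7. The number of members higher in the libraries labelled SARAF-KO was 1 with DESeq2 on the recovered reads, where Junb had an adjusted p of 0.12. Leaving out 1 library at a time gave 1 to 2 members higher and 6 to 7 lower, the 1 being without SARAF-WT replicate 2. Ier2 had an adjusted p of 0.10 with DESeq2, 0.084 with upper-quartile scaling, 0.054 with no filter, and 0.085 to 0.21 without SARAF-KO replicate 1 or 2 or SARAF-WT replicate 1 or 3. The cause was not tested. Over all genes 3318 were higher and 3328 lower with DESeq2 and 4014 and 3912 with edgeR. Over 12254 genes the deviations of same-numbered libraries had correlations of -0.03, -0.01 and -0.05, so the numbers were not taken to pair the libraries, although replicate 3 was the highest of its label in 8 of 10 members in both labels. A fit with the replicate number as a block called 3906 genes higher and 3895 lower and changed no call of a member, with Egr1 at -0.57 and Fos at -0.77. Depth limits Fosb, Egr2 and Egr3 most, with 127 to 252 reads per library. The mean ratio of Fosl1 to Fos per length went from 1.30 to 3.05 in the KO-labelled libraries and from 0.476 to 1.11 in the WT-labelled ones when only unshared exon bases were used, an alternative chosen after seeing the data. This change of length scales all libraries alike, so it does not test the difference between the labels.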
